A study of Mus musculus with 20 samples.

Results

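The hearts of female and male mice kept on ordinary chow were compared across the autosomes, chromosomes 1 to 19. The F group was 5 libraries (chow F 1 to 5) and the M group was 4 (chow M 1, 2, 3 and 5). The libraries were picked by their titles. Chow M 4 was left out because it was counted per gene, while the others were counted per piece of exon. Of 49005 genes with exon pieces, 44724 were autosomal, and 16813 of those had enough counts to be tested. Both groups were wild-type C57BL/6 mice of 12 weeks, with no transgene or drug named in the labels. The whole series has 20 samples, 5 for each pairing of sex with chow or with a diet titled PA. PA is taken here to mean the high-fat diet, the only other diet in the series text. Whether the libraries came from separate animals is not stated, and neither the hour at which hearts were taken nor a batch is given. The p-values therefore measure the spread between these samples, which may be technical.

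Female and male hearts of the same strain differ beyond the sex chromosomes, in energy supply, matrix, channels and the hormone-driven programmes that act on them. The heart also carries its own circadian clock, a loop in which BMAL1 (encoded by Arntl) with CLOCK or NPAS2 switches on its own repressors, the Per, Cry and Nr1d genes, through a short DNA element called the E-box. Nr1d1 and Nr1d2 in turn shut Arntl down through a different element, the RRE, and the factors Dbp, Tef and Hlf pass the rhythm on through the D-box. Because each of these transcripts rises and falls through the day, their level in a heart depends on the hour at which it was taken.

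The 5 F libraries held 63324962 to 78418366 counts and the 4 M libraries 73973199 to 85794067. Between 24189 and 24453 genes had a count in an F library, and between 23961 and 24600 in an M library. The unit of a level below is CPM, a count divided by the TMM-adjusted size of its library and not by gene length. A gene with no count is read against a floor of 3 counts, which is 0.0472 CPM in the smallest library and covers counting error only. The labels held: Xist, the RNA that silences an X chromosome, ranged over 113.5 to 136 CPM in F hearts and 0.167 to 0.358 CPM in M hearts, and the Y-linked Kdm5d had no count in F hearts and 18.2 to 19.9 CPM in M hearts. In a principal component analysis of the 9 libraries, the component with the most variance (26.0%) put F hearts at -26.3 to -10.6 and M hearts at 16.6 to 28.1. Chow F 4 stood apart on the next component (15%), at -32.9 against -8.07 to 18.2 for the other 8. The hearts carried their labelled tissue: the 10 cardiomyocyte markers summed to 98580 to 106200 CPM in F hearts and 100900 to 108200 CPM in M hearts.

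Across the autosomes, 1467 of 16813 genes passed edgeR's quasi-likelihood test at an adjusted p under 0.05, which is 8.73% of those tested. The adjustment is Benjamini-Hochberg over all genes tested, and each log2 difference (F over M) is given with its standard error after ±. Of these, 634 (3.77%) were higher and 833 (4.95%) were lower in F hearts. Most of the changes were small: 1146 of the 1467 (78.1%) were under 1.5-fold, and the median log2 change was 0.40 for the genes that rose and -0.31 for those that fell. At least 2-fold, 56 genes were higher and 52 were lower. In 1269 of the called genes (86.5%) the F and M libraries did not overlap, against 12.0% of all genes tested (5.58% with F above all M and 6.44% with F below). The median log2 difference over all autosomal genes tested was 0.01. Where a gene's value is given for every heart, the order is chow F 1 to 5 and chow M 1, 2, 3 and 5.

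The count of called genes moved with single libraries. It was 941 without chow M 1, 733 without chow M 2 and 819 without chow M 3, while without any other single library it lay between 1097 and 1437. With the 17 libraries of all 4 groups in 1 model the count was 1833, and with 19 libraries, which add high-fat F 4 and 5, it was 550.

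The genes that rose and those that fell also differed in GC content, length and level. The median level was 13.7 CPM for genes higher in F hearts, 33.0 CPM for genes lower and 7.94 CPM for genes not called. Genes higher in F hearts had a median GC content of 51.5% and a median longest transcript of 3086 bases, genes lower in F hearts 48.6% and 4552 bases, and genes not called 49.8% and 2965 bases. Per library, the slope of expression on GC content ranged over -0.03 to 0.06 log2 units per 10 percentage points in F hearts and -0.06 to 0.04 in M hearts. The slope on length ranged over -0.05 to 0.02 log2 units per doubling in F hearts and -0.01 to 0.03 in M hearts. Both ranges overlap between the groups, and the part of GC content, length and level in the calls was not tested. Called genes were spread over all 19 autosomes, at 6.87% of tested genes on chromosome 8 to 10.7% on chromosome 11.

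**Figure D1:**
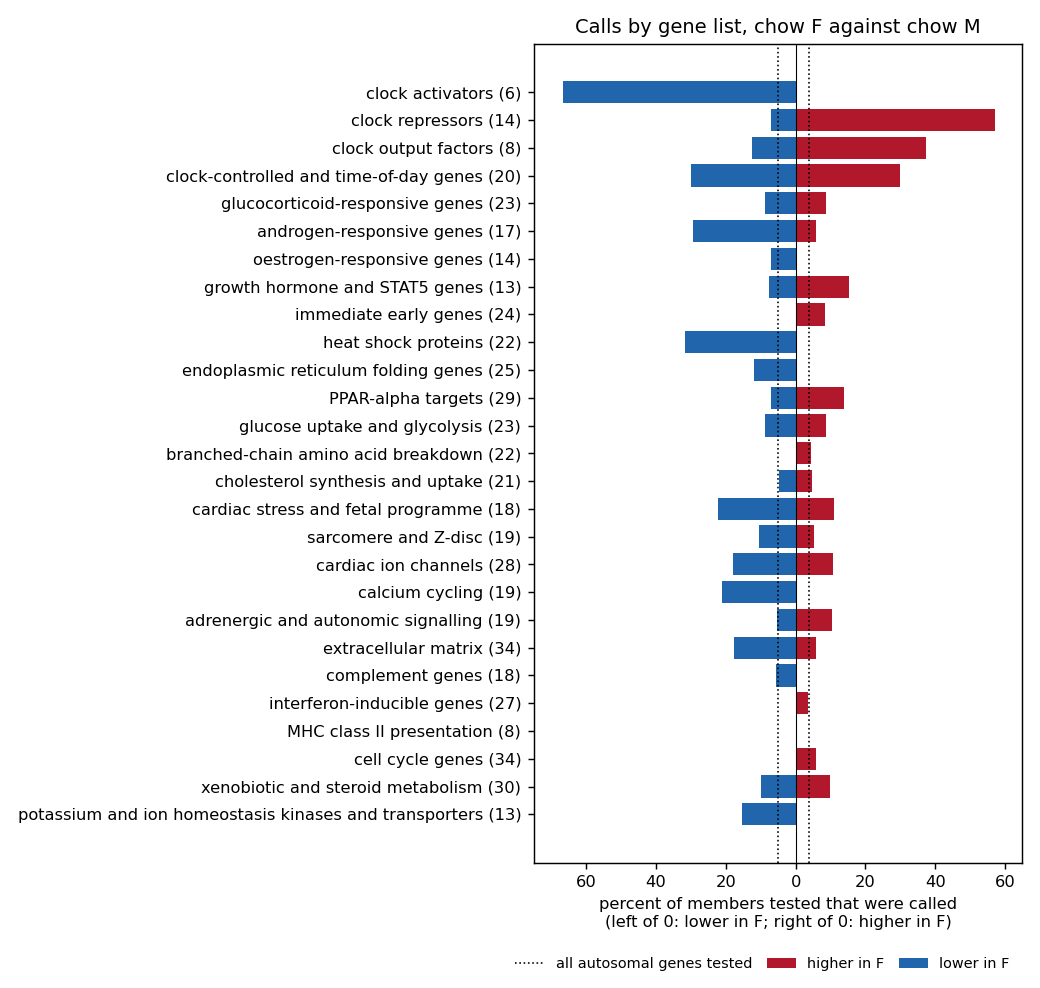
Share of tested members called higher (right of 0) or lower (left of 0) in chow F hearts than in chow M hearts, in percent, for 27 gene lists with the number of members tested in brackets. Dotted lines give 3.77% higher and 4.95% lower, the shares over all 16813 autosomal genes tested; the longest bars are those of the clock activators to the left and the clock repressors to the right. The lists were chosen with earlier results of these data known.

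Among the lists, the clock activators and the clock repressors had the largest shares of called members. These were 66.7% and 64.3%, against 8.73% over all autosomal genes tested. Of 6 clock activators tested, 4 fell and none rose in F hearts; of 14 repressors, 8 rose and 1 fell; of 8 output factors, 3 rose and 1 fell. The median log2 difference was -0.61 over the activators, 0.64 over the repressors and 0.32 over the output factors. These lists and those below were chosen with earlier results of these data known. A high share may therefore come from the choice, and the shares are given as a description only. Between 4 and 5 output factors, all 4 activators and 7 to 10 repressors were called in the fits that left out each library in turn. The hour at which hearts were taken is not in the labels, so time of collection and sex cannot be told apart in these genes.

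The start regions of the clock genes were searched for the elements this loop uses, in RefSeq promoter windows on GRCm38.p6 that run from 250 bases before to 50 after a start, on both strands. The E-box was CACGTG, the D-box TTATGTAA or TTACGTAA and the core of the RRE TAGGTCA. Of 32851 windows in the table, 7.15% held the E-box, 1.06% the D-box and 2.61% the RRE core. Of 28 listed clock genes 22 had a window, and 6 of these held an E-box, 1 a D-box and 2 an RRE core. Some of these genes have several windows (Clock 3, Csnk1e 4), so the counts per gene are not on the scale of the shares per window. The windows of 5 called genes are shown, 3 that were higher in F hearts (Ciart and Tef with E-boxes, Per3 with a pair of D-boxes) and 2 that were lower (Arntl and Nfil3 with the RRE core, which in Nfil3 reads TGACCTA because it lies on the other strand). Capitals mark the matches.
Ciart, chr3:95882179-95882478, minus strand: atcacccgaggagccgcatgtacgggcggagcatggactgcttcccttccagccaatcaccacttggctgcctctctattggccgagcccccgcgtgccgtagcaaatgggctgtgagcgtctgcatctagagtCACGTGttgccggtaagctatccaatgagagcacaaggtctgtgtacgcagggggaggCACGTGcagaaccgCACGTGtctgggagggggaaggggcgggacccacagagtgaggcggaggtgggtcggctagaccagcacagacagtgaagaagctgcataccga
Tef, chr15:81811164-81811463, plus strand: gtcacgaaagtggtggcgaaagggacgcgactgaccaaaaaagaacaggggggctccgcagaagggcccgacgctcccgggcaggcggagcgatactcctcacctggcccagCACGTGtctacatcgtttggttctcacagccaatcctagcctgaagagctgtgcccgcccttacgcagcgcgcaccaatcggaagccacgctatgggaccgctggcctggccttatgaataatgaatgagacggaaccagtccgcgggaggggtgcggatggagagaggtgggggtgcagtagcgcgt
Per3, chr4:151044616-151044915, minus strand: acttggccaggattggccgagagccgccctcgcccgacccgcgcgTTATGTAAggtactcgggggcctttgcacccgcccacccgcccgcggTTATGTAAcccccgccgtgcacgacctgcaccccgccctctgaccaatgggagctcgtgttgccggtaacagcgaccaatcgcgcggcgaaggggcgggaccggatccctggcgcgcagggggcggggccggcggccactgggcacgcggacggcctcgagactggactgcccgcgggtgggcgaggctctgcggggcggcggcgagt
Arntl, chr7:113207261-113207560, plus strand: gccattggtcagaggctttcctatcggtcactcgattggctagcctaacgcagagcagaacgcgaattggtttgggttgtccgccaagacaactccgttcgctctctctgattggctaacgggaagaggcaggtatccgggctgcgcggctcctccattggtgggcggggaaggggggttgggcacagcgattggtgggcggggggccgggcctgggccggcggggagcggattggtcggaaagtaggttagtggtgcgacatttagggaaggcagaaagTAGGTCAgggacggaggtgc
Nfil3, chr13:52980990-52981289, minus strand: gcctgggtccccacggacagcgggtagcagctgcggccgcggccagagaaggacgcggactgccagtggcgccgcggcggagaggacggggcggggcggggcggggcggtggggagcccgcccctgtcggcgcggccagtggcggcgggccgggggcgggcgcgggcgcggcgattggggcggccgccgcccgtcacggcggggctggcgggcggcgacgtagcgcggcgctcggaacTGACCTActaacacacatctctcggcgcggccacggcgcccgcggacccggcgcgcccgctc
A match is a description of the letters, not evidence that a factor binds there. An E-box was also held by Bhlhe41, which rose, by Cry1, which fell (log2 -0.97), and by Per1, which did not pass the test (log2 0.63). Klf15 held 3 E-boxes and did not pass the test (log2 0.02 ± 0.13, edgeR adjusted p = 0.944), and the windows of Dbp, Nr1d1 and Nr1d2, which all rose, held none of the 3 motifs.

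Among the activators, Arntl (chr7:113207465-113314126, plus strand) had 13.3, 8.81, 14.6, 9.98 and 12 CPM in F hearts, against 34.4, 39.9, 37.9 and 37.5 CPM in M hearts. Every F heart lay below every M heart, and the edgeR fit gave log2 -1.67 ± 0.12, adjusted p = 4.80e-06. Its partner Clock had 34.8, 34.4, 31.5, 29.7 and 30.7 CPM in F hearts, against 46.7, 49.5, 52.5 and 44.1 CPM in M hearts (log2 -0.58 ± 0.06, adjusted p = 1.71e-04). Npas2, which can stand in for Clock, had 4.21, 3.38, 3.95, 3.83 and 3.64 CPM in F hearts, against 7.48, 7.74, 7.21 and 9.93 CPM in M hearts (log2 -1.09 ± 0.11, adjusted p = 5.51e-05). None of these 3 genes overlapped between the groups, whereas Rora (log2 -0.05 ± 0.10) and Rorb (0.44 ± 0.28) overlapped and did not pass the test.

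The repressors that were called were higher in F hearts, with Cry1 as the exception. Nr1d1, which encodes the receptor REV-ERBα, had 124, 118, 112, 107 and 108 CPM in F hearts, against 54.3, 41.6, 52.7 and 44.2 CPM in M hearts (log2 1.24 ± 0.08, adjusted p = 1.77e-06). Its relative Nr1d2 had 84.3, 88.1, 72.9, 98.5 and 80.7 CPM in F hearts, against 43.2, 40, 45.7 and 38.2 CPM in M hearts (log2 1.02 ± 0.08, adjusted p = 1.06e-05). Both separated the groups fully. Per3 had 28.6, 34.1, 21.5, 36.1 and 24.4 CPM in F hearts, against 11.6, 8.5, 9.25 and 8.74 CPM in M hearts (log2 1.60 ± 0.15, adjusted p = 4.09e-05). Ciart, whose product binds BMAL1 and blocks it, had 6.99, 9.46, 6.87, 15.3 and 11.1 CPM in F hearts, against 3.61, 3.11, 3.02 and 4.01 CPM in M hearts (log2 1.53 ± 0.21, adjusted p = 0.00101). Chow F 4 was the highest library in both of these genes and in Per2, which had 8.45, 12.7, 8.26, 15.1 and 10.8 CPM in F hearts, against 5.99, 8.56, 4.92 and 5.05 CPM in M hearts. Per2 overlapped between the groups through chow M 2 and passed the test (log2 0.85 ± 0.20, adjusted p = 0.0186), but not without chow M 1, 3 or 5. Per1 ran from 25.9 to 87.6 CPM within F hearts alone and did not pass (log2 0.63 ± 0.27, adjusted p = 0.169). Cry2 rose (log2 0.66 ± 0.08, adjusted p = 2.36e-04) and Cry1 fell: Cry1 had 8.34, 8.23, 8.07, 9.54 and 7.99 CPM in F hearts, against 16, 19.1, 14.8 and 16.4 CPM in M hearts (log2 -0.97 ± 0.08, adjusted p = 1.78e-05). The pair encode the cryptochromes, which both inhibit BMAL1 with CLOCK. Bhlhe41 (log2 0.87 ± 0.08, adjusted p = 5.19e-05) and Bhlhe40 (log2 0.53 ± 0.13, adjusted p = 0.0231) encode further E-box repressors. Bhlhe40 overlapped between the groups and lost its call without chow M 1 or 3.

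The output factors held the largest difference among the named genes. Dbp (chr7:45705088-45710203, plus strand) had 88.1, 95.8, 72.2, 109.8 and 89.8 CPM in F hearts, against 11.1, 7.77, 8.36 and 8.4 CPM in M hearts. The lowest F heart lay above the highest M heart by a wide margin, and the fitted level was 10.2-fold higher in F hearts (log2 3.36 ± 0.13, adjusted p = 3.75e-09). Its relatives Tef and Hlf, which bind the same D-box, rose by less. Tef had 104, 115, 90.1, 115 and 101 CPM in F hearts, against 62.9, 60.2, 57.5 and 56.1 CPM in M hearts (log2 0.83 ± 0.07, adjusted p = 1.78e-05), and Hlf had 16.9, 22.9, 16.4, 24.2 and 19.4 CPM in F hearts, against 13.1, 11.3, 11.6 and 11.1 CPM in M hearts (log2 0.76 ± 0.11, adjusted p = 0.00169). Nfil3 encodes the repressor that competes with them at the D-box, and it moved the opposite way. It had 3.57, 3.73, 4.57, 3.52 and 4.06 CPM in F hearts, against 9.4, 12.3, 9.64 and 10.6 CPM in M hearts (log2 -1.43 ± 0.10, adjusted p = 4.80e-06). Klf9, Klf10, Klf13 and Klf15 did not pass, with log2 differences of 0.23, 0.41, 0.03 and 0.02.

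No source used here says that reads were counted by strand, so a gene that lies across from another was also read from its free exon pieces. Dbp lies opposite Sphk2; the pieces of Dbp clear of it held 62.1% of its counts and gave a log2 difference of 3.45. Nr1d1 lies opposite Thra, and its free pieces (81.2% of counts) gave 1.38. The free pieces of Arntl (95.0%) gave -1.66 and those of Bhlhe41, only 20.3% of its counts, gave 0.78. In each of these 4 the free pieces kept F and M hearts apart. The same held for genes described further on: Adam19 (64% of counts, log2 -1.47), Adamts4 (68.7%, -1.26), Gli1 (62.6%, 1.01) and Adra1d (36.4%, -0.95).

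**Figure D2:**
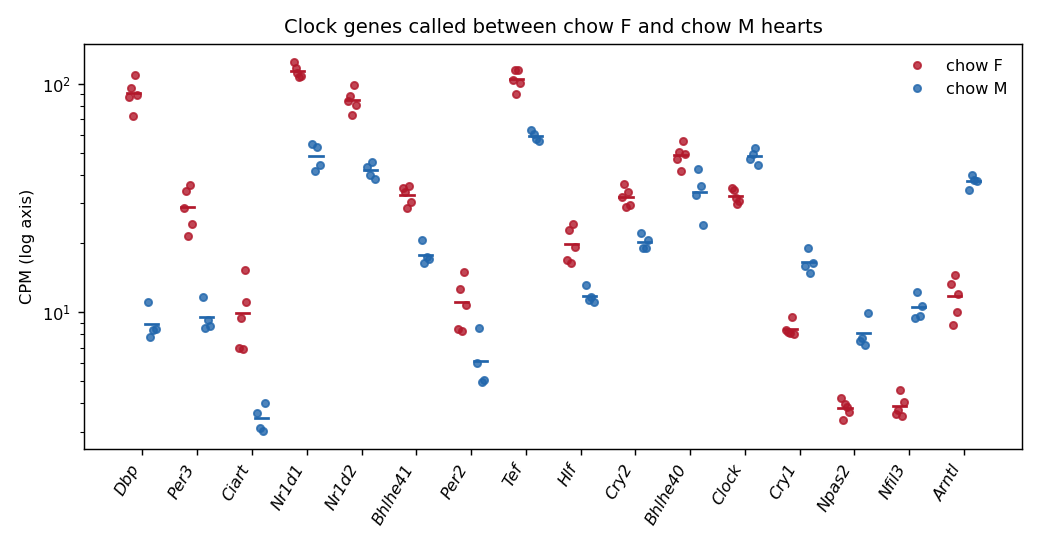
CPM on a log axis for 16 clock genes called between chow F (left of each pair, 5 libraries) and chow M (right, 4 libraries); points are libraries and lines are group means. From Dbp to Bhlhe40 the F mean is higher and from Clock to Arntl it is lower, with overlap between groups only in Per2 and Bhlhe40.

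Of 20 tested genes reported to follow the clock or the time of day in heart, 6 were higher and 6 lower. Over all autosomal genes tested, 8.73% were called. The listed genes went both ways, with a median log2 difference of -0.03. The largest was Tcap, which encodes telethonin, the small protein that caps titin at the Z-disc. Tcap had 711, 716, 758, 716 and 822 CPM in F hearts, against 306, 209, 291 and 312 CPM in M hearts (log2 1.41 ± 0.10, adjusted p = 4.64e-06), with no overlap. Usp2, a deubiquitinase, had 104, 120.4, 122, 150.5 and 126 CPM in F hearts, against 70.7, 78.9, 66.8 and 72.6 CPM in M hearts (log2 0.79 ± 0.09, adjusted p = 1.71e-04). Tspan4 (log2 0.95 ± 0.08, adjusted p = 2.41e-05) and Coq10b (log2 0.95 ± 0.15, adjusted p = 0.00248), a coenzyme Q binding protein of mitochondria, were also higher in each F heart than in any M heart. On the lower side Ppp1r3c, the subunit that brings protein phosphatase 1 to glycogen, had 46.8, 53.9, 49, 48.9 and 61 CPM in F hearts, against 94.7, 99, 91.3 and 90.8 CPM in M hearts (log2 -0.86 ± 0.07, adjusted p = 1.28e-05). Cdkn1a, which encodes the cell cycle inhibitor p21, had 7.09, 6.43, 17.4, 10.6 and 19.2 CPM in F hearts, against 19.2, 34.6, 21.9 and 32.2 CPM in M hearts. The highest F value of Cdkn1a nearly reached the lowest M value, and its call (log2 -1.15 ± 0.30, adjusted p = 0.0302) was lost without chow F 1, chow F 4, chow M 2 or chow M 5.

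Steroid-responsive genes went both ways. Of 23 glucocorticoid-responsive genes 2 rose and 2 fell (17.4%, against 8.73% over all autosomal genes tested), with a median of 0.02. Fkbp5, which dampens the receptor's own response, had 8.03, 7.35, 9.77, 7.81 and 14.6 CPM in F hearts, against 13.2, 22.7, 15.6 and 18.1 CPM in M hearts. Chow F 5 lay inside the M range, and the call (log2 -0.87 ± 0.20, adjusted p = 0.016) was lost without chow M 2. Rgs2, a brake on G protein signalling, had 44.2, 46.6, 64.6, 62 and 47.4 CPM in F hearts, against 28.3, 33, 31.2 and 37.6 CPM in M hearts (log2 0.70 ± 0.12, adjusted p = 0.00363). Of 17 androgen-responsive genes 5 fell and 1 rose (35.3%, against the same 8.73%), with a median of -0.06. Hsd11b1, which regenerates active glucocorticoid inside cells, had 11.7, 9.58, 10.3, 7.15 and 6.75 CPM in F hearts, against 17.4, 20, 18.5 and 20.8 CPM in M hearts (log2 -1.08 ± 0.14, adjusted p = 5.83e-04). Igf1, the growth factor, fell by less (log2 -0.38 ± 0.07, adjusted p = 0.00649), and Socs2, a feedback inhibitor of growth hormone signalling, rose (log2 0.30 ± 0.07, adjusted p = 0.0214) but lost its call without chow M 1, 2 or 3. Of 14 oestrogen-responsive genes only Vegfa passed (7.14%, near the 8.73% over all autosomal genes tested). Vegfa, which drives vessel growth, had 324, 354, 334, 340.0 and 344 CPM in F hearts, against 447, 499.9, 471 and 453 CPM in M hearts (log2 -0.46 ± 0.04, adjusted p = 5.49e-05).

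Genes of fat and sugar handling were called in both directions. Of 29 PPAR-alpha targets 4 rose and 2 fell (20.7%, against 8.73% over all autosomal genes tested), with a median of -0.01. Ucp3, an uncoupling protein of the inner mitochondrial membrane, had 112, 78.1, 82.8, 101 and 74.5 CPM in F hearts, against 33.9, 40.3, 31.1 and 24.1 CPM in M hearts (log2 1.47 ± 0.15, adjusted p = 6.27e-05). Angptl4, a secreted inhibitor of lipoprotein lipase, had 19.4, 8.99, 10.6, 8.52 and 5.8 CPM in F hearts, against 3.82, 2.6, 5.21 and 3.05 CPM in M hearts. The values of Angptl4 spread more than 3-fold among F hearts, yet none overlapped with M hearts (log2 1.53 ± 0.30, adjusted p = 0.00836). Cpt1a, which controls entry of fatty acids into mitochondria, had 79, 66.6, 66.2, 74.1 and 65.5 CPM in F hearts, against 52.6, 48.8, 53.2 and 44.1 CPM in M hearts (log2 0.50 ± 0.07, adjusted p = 0.00104). Ehhadh, a peroxisomal enzyme, rose by less (log2 0.37 ± 0.07, adjusted p = 0.00977), while Slc25a20, the carnitine carrier, and Pex11a, which helps peroxisomes divide, fell with log2 differences of -0.18 and -0.30. Both of these lost their call without chow M 2, and Slc25a20 also without chow F 3, chow F 4, chow M 1 or chow M 3.

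In glucose uptake and glycolysis 2 of 23 genes rose and 2 fell (17.4%), with a median of -0.01. Slc2a1, the basal glucose transporter GLUT1, had 23.7, 22.7, 27, 23.8 and 20.4 CPM in F hearts, against 15.7, 15.4, 15.5 and 15.7 CPM in M hearts (log2 0.60 ± 0.07, adjusted p = 4.03e-04). The isozymes that set the level of fructose 2,6-bisphosphate moved apart. Pfkfb3 had 12.2, 15.6, 20.1, 12.2 and 13.5 CPM in F hearts, against 7.67, 9.44, 9.56 and 6.78 CPM in M hearts (log2 0.81 ± 0.15, adjusted p = 0.00637), and the cardiac form Pfkfb2 had 42.9, 49.1, 41.2, 46.8 and 42.7 CPM in F hearts, against 61, 75.9, 74.1 and 76.4 CPM in M hearts (log2 -0.69 ± 0.07, adjusted p = 1.06e-04). Cth, the enzyme that makes cysteine from cystathionine, had 3.57, 3.81, 3.43, 4.48 and 3.25 CPM in F hearts, against 1.4, 1.49, 1.35 and 0.878 CPM in M hearts (log2 1.53 ± 0.15, adjusted p = 7.14e-05). Branched-chain amino acid breakdown had 1 gene of 22 called (4.5%, against 8.73% over all autosomal genes tested), Ppm1k, whose groups overlapped. Cholesterol synthesis and uptake had 2 of 21 (9.52%, near the share over all genes), Fdft1 higher (log2 0.25) and Hmgcs1 lower (-0.24).

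Of 18 genes of the cardiac stress and fetal programme, which mark load on the heart, 4 fell and 2 rose in F hearts. That is 33.3%, against 8.73% over all autosomal genes tested, and the list's median was 0.00. Nppb, which encodes the natriuretic peptide BNP, had 112, 150.4, 134, 115 and 97.8 CPM in F hearts, against 256, 210.4, 228 and 213 CPM in M hearts (log2 -0.90 ± 0.10, adjusted p = 2.71e-04). Acta1, skeletal actin, had 72.7, 79.1, 60.3, 108 and 54.9 CPM in F hearts, against 225, 132, 113 and 144 CPM in M hearts (log2 -1.03 ± 0.20, adjusted p = 0.0084). It was the only 1 of 7 skeletal muscle markers tested that was called (14.3%). The markers of that list summed to 1558 to 1807 CPM in F hearts and 1720 to 1931 CPM in M hearts. Only the skeletal myosin Myh4 among them was at 0 in all 9 hearts. Rcan1, a feedback inhibitor of calcineurin, had 40.3, 45.7, 46.3, 44 and 41.6 CPM in F hearts, against 65.4, 80.7, 72.8 and 70.1 CPM in M hearts (log2 -0.73 ± 0.06, adjusted p = 2.02e-05). Xirp2, a protein of the intercalated disc, fell too (log2 -0.58 ± 0.09, adjusted p = 0.00205), although its free pieces were only 39.6% of its counts, with a log2 difference of -0.49. Myh7 and Acta2 rose with log2 differences of 0.33 and 0.42, but both overlapped between groups. Myh7 lost its call without chow F 1, 2 or 4 or chow M 2, 3 or 5, and Acta2 without chow F 1 or 5 or any M library. Nppa, the atrial peptide, ran over 91.1 to 149.8 CPM in F hearts and 65.4 to 138 CPM in M hearts and did not pass (log2 0.35 ± 0.19, adjusted p = 0.267).

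Of 19 sarcomere and Z-disc genes, Tcap was the only one that rose, and Nexn (log2 -0.28 ± 0.04, adjusted p = 0.00236) and Ttn (log2 -0.22 ± 0.06, adjusted p = 0.0379) fell. Called members were 15.8% of this list, against 8.73% over all autosomal genes tested. Ttn, the giant spring protein titin, overlapped between groups and lost its call without chow F 1, 3, 4 or 5 or chow M 2, 3 or 5. Of 28 cardiac ion channel genes 3 rose and 5 fell (28.6%, against the same 8.73%). Kcnh2, the channel behind the rapid delayed rectifier current, had 89.5, 86.4, 86.8, 83.5 and 102 CPM in F hearts, against 62.3, 59.2, 63.8 and 66 CPM in M hearts (log2 0.51 ± 0.06, adjusted p = 2.62e-04). Hcn4, the pacemaker channel, had 5.23, 5.84, 4.74, 4.76 and 5.0 CPM in F hearts, against 7.5, 7.28, 6.66 and 7.16 CPM in M hearts (log2 -0.48 ± 0.08, adjusted p = 0.00414). Cacna1h, a T-type calcium channel, had 10.6, 11.2, 10.7, 12.1 and 9.71 CPM in F hearts, against 17, 12.6, 15.8 and 14.7 CPM in M hearts (log2 -0.47 ± 0.09, adjusted p = 0.00743). Kcnd3 and its partner Kcnip2, which together carry the transient outward current, moved in opposite directions at log2 -0.29 and 0.24. Both calls were lost without chow M 1 or chow M 3, and the number of channel genes called fell to 3 without either of those libraries. Without chow M 2 it was 4 and without chow F 3 it was 5. Of 19 calcium cycling genes 4 were called (21%, against 8.73%). These were Trdn, Asph, Camk2b and Atp2b1, all lower by log2 differences of -0.31 to -0.15. None of them was called without chow F 3 or without chow M 2. Without chow F 1, 4 or 5 the list had 2 calls each and without chow M 1 or 3 it had 1 each. Of 19 adrenergic and autonomic genes 2 rose and 1 fell (15.8%, against 8.73%). Adrb1, the main beta receptor of heart muscle, had 10.8, 12.1, 13.2, 11.6 and 11.3 CPM in F hearts, against 9.59, 8.25, 9.55 and 8.94 CPM in M hearts (log2 0.38 ± 0.08, adjusted p = 0.00903), and Adra1d had 1.325, 1.46, 1.91, 1.63 and 1.55 CPM in F hearts, against 2.66, 2.97, 2.39 and 2.35 CPM in M hearts (log2 -0.72 ± 0.13, adjusted p = 0.00509).

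The matrix list had 6 falls and 2 rises of 34 genes tested (23.5%, against 8.73% over all autosomal genes tested), with a median of -0.04. Thbs1 encodes thrombospondin-1, which binds matrix and growth factors, and showed the most negative log2 difference of the named genes that were called. It had 5.83, 6.23, 7.66, 8.03 and 4.65 CPM in F hearts, against 18.4, 146, 11.7 and 8.71 CPM in M hearts. Chow M 2 stood far above the other M hearts, and although no F heart reached the lowest M heart, the value rests on that library. The fit gave log2 -2.83 ± 0.69, adjusted p = 0.0231 with it, and log2 -1.0 and an adjusted p of 0.0235 in edgeR without it. Eln, the elastic fibre protein elastin, had 52.6, 47.5, 62.6, 33.3 and 55.6 CPM in F hearts, against 85.2, 88.4, 91.7 and 93.8 CPM in M hearts (log2 -0.83 ± 0.13, adjusted p = 0.00214). Lox, the enzyme that cross-links elastin and collagen, had 1.83, 1.5, 1.48, 1.59 and 1.91 CPM in F hearts, against 2.13, 3.52, 3.31 and 2.59 CPM in M hearts (log2 -0.80 ± 0.15, adjusted p = 0.00755). The basement membrane collagen Col4a1 fell by less (log2 -0.29 ± 0.06, adjusted p = 0.00962). Col14a1, a collagen that sits on fibril surfaces, and Lum, the proteoglycan lumican, went up. Col14a1 had 41.7, 36.1, 32.2, 48.8 and 33.2 CPM in F hearts, against 17.7, 19.9, 19.5 and 16.1 CPM in M hearts (log2 1.07 ± 0.12, adjusted p = 1.42e-04), and Lum had 53.9, 43.4, 40.6, 53.8 and 45.9 CPM in F hearts, against 34.8, 29.4, 29.4 and 26.5 CPM in M hearts (log2 0.66 ± 0.10, adjusted p = 0.00131). Lum is also a fibroblast marker; of 10 fibroblast markers 2 rose, Lum and Tcf21 (log2 0.45), and the 10 summed to 2659 to 2999 CPM in F hearts and 2550 to 2766 CPM in M hearts. In whole tissue, more cells of a type and more RNA per cell cannot be told apart.

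The 15 largest falls were ranked among genes at a mean of 1 CPM or more whose groups did not overlap. Of the proteases and secreted proteins among them, Adam19 (chr11:46055992-46147343), a membrane metalloprotease with a role in heart development, had 35.1, 33.7, 28.1, 26.1 and 24.2 CPM in F hearts, against 68.2, 76.8, 85.8 and 84.3 CPM in M hearts (log2 -1.42 ± 0.11, adjusted p = 6.19e-06). Cpxm2, a secreted carboxypeptidase relative, had 9.35, 11, 10.4, 11.2 and 5.6 CPM in F hearts, against 27.5, 29.2, 26.6 and 26.9 CPM in M hearts (log2 -1.53 ± 0.15, adjusted p = 6.27e-05). Adamts4, which cuts aggrecan and versican, had 1.34, 0.858, 1.24, 0.707 and 0.783 CPM in F hearts, against 1.96, 2.49, 2.15 and 2.19 CPM in M hearts (log2 -1.15 ± 0.19, adjusted p = 0.00274). Spon2 had 6.56, 5.06, 7.41, 4.1 and 6.88 CPM in F hearts, against 12.7, 12, 14.3 and 11.9 CPM in M hearts (log2 -1.08 ± 0.14, adjusted p = 6.69e-04). In all 4 no F heart reached an M heart, which the ranking required. C7 (chr15:4988762-5063773), a component of the membrane attack complex, had 2.87, 2.11, 2.91, 2.58 and 1.79 CPM in F hearts, against 12.2, 17.5, 12.7 and 11.8 CPM in M hearts (log2 -2.47 ± 0.15, adjusted p = 1.42e-06). It was the only one of 18 complement genes called (5.56%, against 8.73% over all autosomal genes tested), where the list's median was -0.04. Without chow F 3 the list had 4 calls and without chow F 4 it had 2. Others of the 15 were Lvrn, a membrane aminopeptidase (log2 -2.28 ± 0.18, adjusted p = 1.16e-05), Ifi205 (log2 -1.97 ± 0.26, adjusted p = 6.69e-04), Ano5, an anoctamin linked to muscular dystrophy in humans (log2 -1.70 ± 0.27, adjusted p = 0.00273), and Pde11a, a cyclic nucleotide phosphodiesterase (log2 -1.34 ± 0.23, adjusted p = 0.00428). These 4 genes separated the groups, as the ranking required, with Ano5 at 0.629 to 2.2 CPM in F hearts and 2.84 to 5.46 CPM in M hearts.

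The other large rises included a secreted factor and a receptor. Ptn, the growth factor pleiotrophin, had 4.7, 4.68, 3.15, 5.23 and 4.05 CPM in F hearts, against 1.98, 1.97, 1.71 and 1.59 CPM in M hearts (log2 1.26 ± 0.14, adjusted p = 2.29e-04). Lepr, the leptin receptor, had 6.05, 6.46, 3.71, 5.96 and 4.65 CPM in F hearts, against 2.57, 2.15, 2.99 and 2.03 CPM in M hearts (log2 1.14 ± 0.17, adjusted p = 0.00156). The largest rises were ranked under the same condition as the falls, so in both genes every F heart was above every M heart. Gli1, the transcription factor that reads out hedgehog signalling, rose at about 1 CPM (log2 1.05 ± 0.22, adjusted p = 0.011), and Cdc25b, a phosphatase that activates cyclin-dependent kinases, rose too (log2 1.04 ± 0.14, adjusted p = 6.14e-04).

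**Figure D3:**
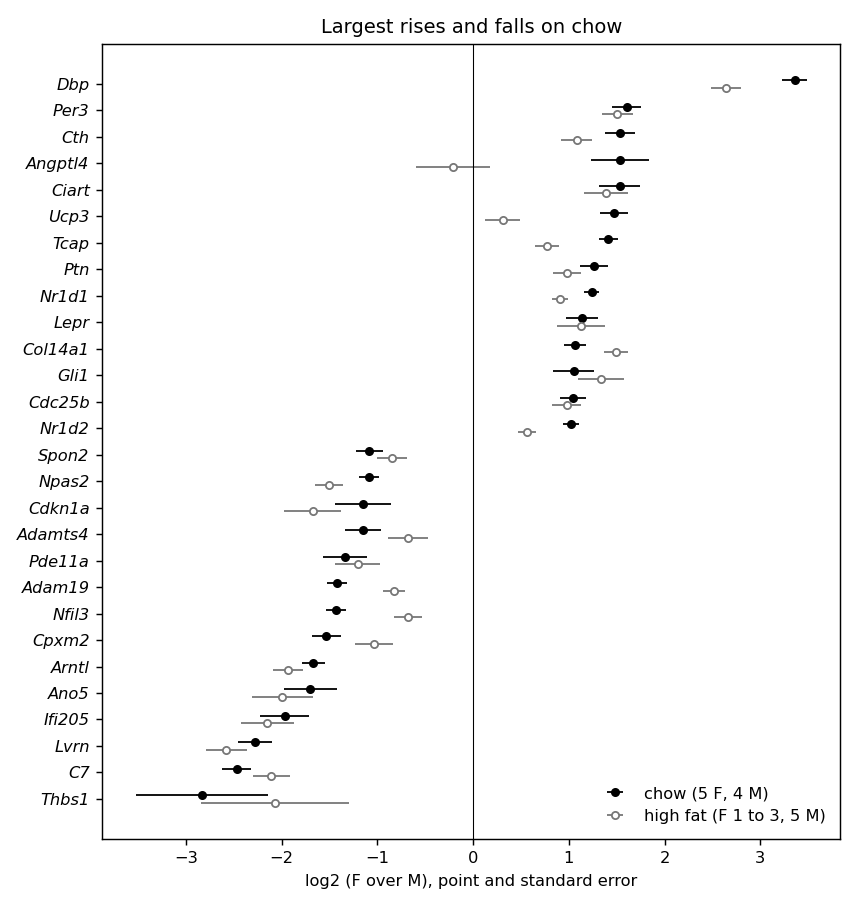
log2 difference (F over M) with its standard error for 14 of the largest rises and 14 of the largest falls among genes at a mean of 1 CPM or more whose groups did not overlap, on chow (filled, 5 F and 4 M libraries) and on high fat (open, F 1 to 3 and 5 M libraries). Of the 28 genes shown, Angptl4 alone has a high-fat point on the other side of 0 from its chow point, and the bars of Thbs1 are the widest.

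The heat shock genes that were called were all lower in F hearts. Of 22 tested, 7 fell (31.8%, against 8.73% of all autosomal genes tested called either way) and none rose. Of the 22, 20 had a negative log2 difference, and the median was -0.18. Dnaja1, a co-chaperone of HSP70, had 70.6, 85.7, 94.9, 101 and 105 CPM in F hearts, against 138, 206, 124 and 111 CPM in M hearts (log2 -0.66 ± 0.16, adjusted p = 0.0204). Hsp90aa1, the inducible HSP90, had 124, 143, 147, 141 and 162 CPM in F hearts, against 183, 263, 173 and 174 CPM in M hearts (log2 -0.47 ± 0.11, adjusted p = 0.0239). Chordc1, a co-chaperone of HSP90, had 52.1, 48.2, 53.6, 51.6 and 54.5 CPM in F hearts, against 67.1, 86.4, 70.1 and 67.7 CPM in M hearts (log2 -0.49 ± 0.07, adjusted p = 0.00136). In these 3 chow M 2 was the highest library and the groups did not overlap. Hspa8, Hspa4l, Dnajb4 and Bag3 fell by less, with log2 differences of -0.35 to -0.20, and Hspa8 and Hspa4l overlapped between groups. Without chow M 2 the list had 4 calls, without chow F 1 it had 3 and without chow F 3 or 4 it had 4; the 19-library model called none. The endoplasmic reticulum list had 3 falls of 25 (12.0%, against the same 8.73%) and no rises. They were Atf6 (log2 -0.46 ± 0.06, adjusted p = 5.36e-04), a sensor of unfolded protein, Syvn1 (log2 -0.47 ± 0.07, adjusted p = 0.0017), a ligase that marks such protein for disposal, and Dnajc3 (log2 -0.30). Without chow F 3 or without chow F 5 this list had 5 calls, and 7 with DESeq2.

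Chow M 2 also stood out in immediate early genes, transcripts that respond to stimuli within minutes. Egr2 was at 10.3 CPM in that heart, against 0.319 to 0.725 CPM in F hearts and 0.358 to 0.453 CPM in the other M hearts. Nr4a1 had 30.9, 42.4, 51.7, 57.9 and 37 CPM in F hearts, against 8.55, 38.3, 12.1 and 9.3 CPM in M hearts. Nr4a1 passed (log2 1.37 ± 0.38, adjusted p = 0.0412) with chow M 2 inside the F range; without that library its log2 difference was 2.14, and the call was lost without chow F 2, 3 or 4 or chow M 1, 3 or 5. Of 24 immediate early genes Nr4a1 and Btg2 rose and none fell (8.33%, near the 8.73% over all autosomal genes tested). Without chow F 2 there was 1 call, and without chow F 3, chow F 4, chow M 1, chow M 3 or chow M 5 none was called. The 8 neutrophil markers summed to 2.36 to 3.19 CPM in F hearts and 2.56 to 9.73 CPM in M hearts, the highest being chow M 2, where S100a8 had 1.76 CPM. Their part in the Thbs1 and Nr4a1 values was not tested.

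**Figure D4:**
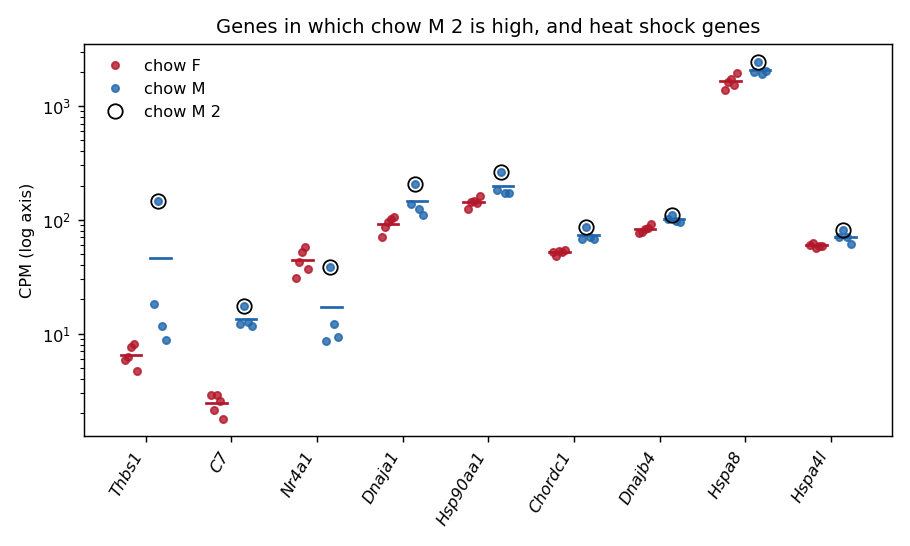
CPM on a log axis for Thbs1, C7, Nr4a1 and 6 heat shock genes in chow F (left of each pair) and chow M (right) libraries, with lines at the group means and a ring around chow M 2. Chow M 2 is the highest M library in all 9 genes, at 146 CPM for Thbs1 against 8.71 to 18.4 CPM in the other M hearts.

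Of the interferon-inducible genes 3.70% passed the test, against 8.73% over all autosomal genes tested. All 27 tested had a positive log2 difference, with a median of 0.60, but only Ifit2 was called (log2 0.55 ± 0.15, adjusted p = 0.0341), and not without chow F 2 or chow M 2, 3 or 5. The summed level of the list was 353, 335, 1038, 308 and 315 CPM in F hearts 1 to 5 and 301, 281, 305 and 268 CPM in M hearts. Each F heart was above each M heart, and chow F 3 stood at about 3 times the others. Without chow F 3, 5 members were called, and without chow F 4 or without chow F 5, 2 were. The 9 MHC class II presentation genes were also highest in chow F 3, at 489 CPM against 144 to 204 CPM in the other F hearts and 197 to 228.5 CPM in M hearts, and none of the 8 tested was called. Of the macrophage markers 2 of 11 fell (18.2%), Adgre1 and Csf1r, and the 11 summed to 166 to 215 CPM in F hearts and 199 to 231 CPM in M hearts. Adgre1 lost its call without any of 7 single libraries (chow F 3 and 5 were the exceptions), and Csf1r without any but chow F 1.

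Calls among markers of other cell types and of cell division were 2 or fewer in each list. Of 34 cell cycle genes Mcm7 (log2 0.38 ± 0.09, adjusted p = 0.0169) and Pcna (log2 0.20) rose and none fell, and neither was called without chow M 2 or without chow M 3. These 2 are 5.88% of the list, below the 8.73% over all autosomal genes tested. Flt1 was the only endothelial marker of 10 called (log2 -0.28), and its groups overlapped. Lck, a T cell kinase, was called at 0.159 to 0.607 CPM in F hearts and 0 to 0.167 CPM in M hearts, and the call was lost without any single library but chow F 5. Msln was the only mesothelial marker of 9 called (log2 0.37), with overlap. No marker of white fat, brown fat, red cells, neutrophils or B cells was called. White adipocyte markers summed to 4745 to 5536 CPM in F hearts and 4711 to 5264 CPM in M hearts. Dntt and Rag2, which mark thymocytes, were at 0 in all 9 hearts.

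Of 30 enzymes of drug and steroid metabolism 3 rose and 3 fell; without chow M 3 the list had 3 calls, in the 19-library model 2 and with DESeq2 12. Ephx1, an epoxide hydrolase, had 45.4, 43.5, 41.7, 46.2 and 49.3 CPM in F hearts, against 31.3, 26.4, 31.2 and 31 CPM in M hearts (log2 0.59 ± 0.07, adjusted p = 1.71e-04). Gstm2 rose (log2 0.47) with overlap between groups, and Hsd17b11 rose by less (0.35). Fmo2, a monooxygenase, had 16.7, 16.2, 14.8, 14.4 and 16.8 CPM in F hearts, against 20.6, 22.4, 21.4 and 22.9 CPM in M hearts (log2 -0.47 ± 0.06, adjusted p = 9.60e-04). Of 13 ion and water transporters and related kinases 2 fell and none rose (15.4%, against the same 8.73%), the aquaporins Aqp1 and Aqp8. Aqp1, the water channel of capillary endothelium, had 161, 179, 184, 167 and 159 CPM in F hearts, against 191, 221, 224 and 227 CPM in M hearts (log2 -0.34 ± 0.06, adjusted p = 0.00463), and Aqp8 had 1.2, 1.83, 1.52, 1.27 and 1.06 CPM in F hearts, against 2.82, 2.24, 2.43 and 2.16 CPM in M hearts (log2 -0.81 ± 0.16, adjusted p = 0.00863).

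A few further calls rested on single libraries. Dnajc3, Hmgcs1, Pex11a and Col5a2 were not called without chow M 2, Hsp90aa1 without chow F 1, Gstm2 without chow M 2 or 3, and Flt1 without chow F 4 or chow M 2 or 3. Hsd17b11 was not called without chow F 1 or any M library, and Ppm1k without chow F 1, 2, 3 or 5 or chow M 1, 2 or 5. Hspa4l lost its call without chow F 1, 3, 4 or 5 or chow M 1, 2 or 3, and Hspa8 without any library except chow F 5 and chow M 3. Btg2 lost its call without chow F 1 to 4 or chow M 1, 3 or 5, and Pcna without chow F 3 to 5 or any M library.

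The same sex contrast was then read in hearts of the other diet, which share no library with the chow comparison. It used F 1 to 3 and M 1 to 5 of the high-fat groups, because high-fat F 4 and 5 stood apart from all other libraries, at 91.1 and 128 on a component holding 46.9% of the variance where every other library was below 0. In the 17-library edgeR model 1813 of 17683 autosomal genes were called between high-fat F and high-fat M hearts (10.3%), 4.88% higher and 5.37% lower. Of the 1467 genes called on chow, 1334 (90.9%) had the same direction on high fat, against 64.2% of the 15346 genes not called on chow. The same genes were called the same way in 561 cases (38.2% of the chow calls and 30.9% of the high-fat calls), 234 higher and 327 lower, and 4 (Gpcpd1, Abcg2, Col5a2 and Sirpa) were called the other way. A model of the 8 high-fat libraries alone, which called 10.9% of its genes, called 532 of 1457 (36.5%) the same way. Over the 1467 genes Pearson's r of the log2 differences was 0.81 and Spearman's rho 0.82, as a description.

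Clock genes were again among those that held. On high fat 4 of 6 activators were called lower, 7 of 14 repressors higher and 1 lower, and 3 of 8 output factors higher and 1 lower. Over all autosomal genes tested 4.88% were called higher and 5.37% lower. Dbp had a log2 difference of 2.64 on high fat (adjusted p = 1.60e-09 in edgeR), Arntl -1.93 (2.02e-07), Per3 1.5 (9.36e-06) and Nr1d1 0.91 (9.47e-07). Among the other large differences C7 (-2.11, 9.47e-07), Lvrn (-2.58, 2.02e-07) and Col14a1 (1.5, 2.38e-07) were called the same way on both diets. Of the 108 autosomal genes at 2-fold or more on chow, 100 had the same direction on high fat and 55 were called.

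Some chow differences were smaller or of the other sign on high fat, without a difference between diets that passed the test. Ucp3 was at log2 1.47 on chow and 0.31 on high fat (adjusted p of the difference = 0.11 in edgeR), Angptl4 at 1.53 and -0.21 (0.257) and Nr4a1 at 1.37 and -0.68 (0.217). Other lists had more calls on high fat. There 25 of 34 cell cycle genes were called higher in F hearts, 13 of 34 matrix genes higher and 2 lower, and 14 of 29 PPAR-alpha targets lower. Over all autosomal genes tested 4.88% were called higher and 5.37% lower on high fat. These counts rest on 3 F libraries. The 1813 high-fat calls fell to 562 without high-fat F 3 and to 806 without high-fat F 2. Tested gene by gene, the sex effect differed between chow and high fat in 0 of 17683 autosomal genes by edgeR and in 140 by DESeq2, while 1964 had an unadjusted p under 0.05 in edgeR. In simulated counts the edgeR test of this difference recovered 66% of genes changed 1.5-fold and 92% of those changed 2-fold. Those genes had a mean of 1 CPM or more and were changed in chow F hearts only. The same counts also held genes changed 3- and 4-fold, which ease the adjusted cut-off. The real test had no calls, so these shares do not give its power. As no gene passed in edgeR, no chow difference is called particular to chow. The 5 genes with the smallest p for the difference were Gpcpd1, Ankrd13a, Cyp1a1, Nid1 and Abcg2, all at an adjusted p of 0.0815. Gpcpd1, a phosphodiesterase of choline metabolism, was higher in F hearts on chow (log2 0.25) and lower on high fat (-0.31), while Nid1, a basement membrane protein, was lower on chow (-0.44) and at -0.07 on high fat.

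**Figure D5:**
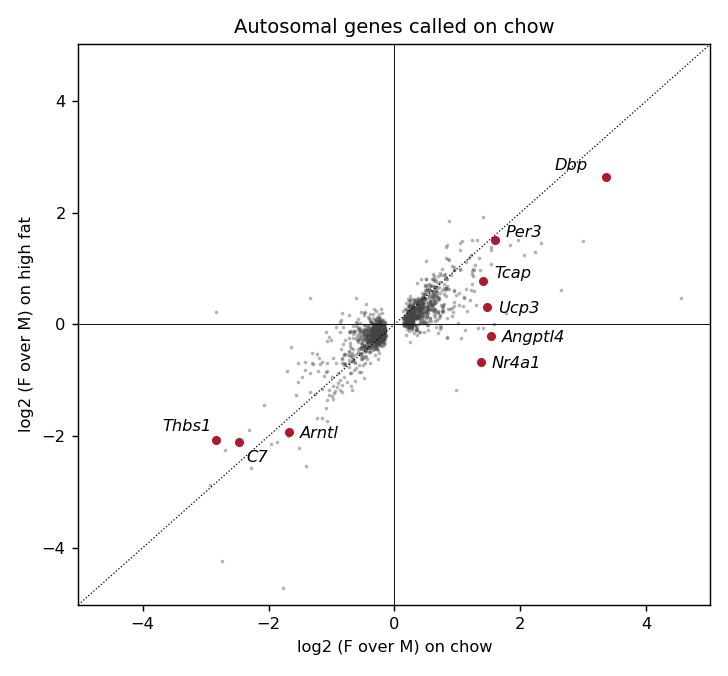
log2 difference (F over M) on chow, horizontal axis, and on high fat, vertical axis, for the 1467 autosomal genes called on chow; the dotted line is equality and 9 genes are named. Most points (90.9%) lie in the quadrants of equal sign; Ucp3 lies near 0 and Angptl4 and Nr4a1 below 0 on high fat.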

How the data were processed

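Polyadenylated RNA of heart kept in RNAlater was sequenced on a NovaSeq, per the labels' protocols. The deposited values are whole counts per piece of exon in 19 files and per gene in the file of chow M 4. Salmon 1.5.1, DESeq2 1.32.0 and GRCm39 are named in the submitters' processing notes, but the files hold no transcript estimates; how reads were aligned and counted, and whether by strand, is not given in the sources used here. A read spanning pieces may be counted in each, in which case totals overstate reads, but this was not tested. Chow M 4, counted per gene, had a total of 31686627, against 63324962 to 85794067 in the other chow libraries. Counts were summed per gene; of 33309 pieces with joined gene IDs, 27829 were given to the gene whose exons hold them and 5480 were not used (1.35% to 1.49% of counts). Positions are GRCm38, at which 91.4% of genes in GENCODE vM21 had the coordinates of the files, although GRCm39 is named.

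Genes were tested with the quasi-likelihood F-test of edgeR 4.0.16 (TMM, filterByExpr, 9 chow libraries, 7 residual degrees of freedom), with Benjamini-Hochberg adjustment over 17396 genes tested, sex-linked ones included, and calls at an adjusted p under 0.05; adjusted p in the text are from it unless another tool is named. Errors after ± are standard errors of log2. In simulated counts of 17396 genes it recovered 80% of genes changed 1.5-fold and 100% at 2-fold, with 6 unchanged genes called. The genes changed there had a mean of 1 CPM or more. The high-fat contrast and the difference came from 17 libraries in 4 groups (18297 genes tested). No 2 libraries were duplicates (lowest chi-square per degree of freedom 11.5). Alternatives were DESeq2 1.42.0, its size factors, no filter, at least 1 CPM in 4 libraries, the largest exon piece, the 17- and 19-library models, a replicate block and fits that omit 1 library. Chosen after seeing the data were single-ID pieces only, numbers 1, 2, 3 and 5 without a block, pieces free of other genes and high-fat libraries alone.

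Named genes are the 15 largest rises and falls among called genes with established symbols, a mean of 1 CPM and groups that do not overlap, up to 6 members of each list by smallest p, and all clock genes; Bag3, Gpcpd1, Ankrd13a, Cyp1a1, Nid1, Abcg2 and Sirpa were chosen after their values were seen. The members and lists were chosen with earlier results of these data known. Some genes that this rule names are not reported here. Motifs were searched in RefSeq windows.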

Additional observations from a re-analysis of the deposited data

Results flagged for a closer look

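Among 228 groups of libraries of called named genes, 11 (4.82%) held a library far from the rest of its group. The 1 in 20 taken for chance is close to that share. All groups are of called genes, however, and the test favours genes whose libraries lie close together within a group. The share therefore cannot tell whether such libraries are in excess. Chow M 2 was the outlying library in 6 of the 11. It was high in Thbs1 (146 CPM, the other M hearts 8.71 to 18.4), Nr4a1 (38.3, others 8.55 to 12.1), C7 (17.5, others 11.8 to 12.7), Hsp90aa1 (263, others 173 to 183) and Chordc1 (86.4, others 67.1 to 70.1), and low in Ephx1 (26.4, others 31.0 to 31.3). Chow M 1 was low in Aqp1 (190.8 CPM, others 221 to 227) and Pfkfb2 (61, others 74.1 to 76.4), and chow M 3 was high in Ppm1k (75.4, others 64.3 to 65.9). Among F hearts, chow F 4 was high in Cry1 (9.54 CPM, others 7.99 to 8.34) and chow F 5 low in Col4a1 (488 CPM, others 572 to 605).

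Col5a2, a fibrillar collagen chain, separated chow F 1 to 5 from chow M hearts and high-fat F 1 to 3 from high-fat M hearts, but on opposite sides: log2 0.27 on high fat (adjusted p = 0.0225) and -0.21 on chow (adjusted p = 0.0133). High-fat F 4 and 5, at 60.5 and 52.4 CPM, lay inside the high-fat M range of 51.4 to 62.4 CPM. The difference itself had an adjusted p of 0.0928 in edgeR, and the chow call was lost without chow M 2.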

How the results depend on the processing

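No named gene called on chow changed direction in any setting run. Autosomal genes called on chow numbered 1467, against 550 in the 19-library model (536 of them called in both), 941 from the largest exon piece and 2234 with DESeq2; in the other settings that kept all 9 libraries they numbered 1355 to 1833. Leaving out each library gave 733 to 1437, and 609 genes were called in all 9 of these fits. On high fat the count was 1813, and 562 to 1990 with each library left out, the lowest without high-fat F 3. For the difference between diets it was 0, against 140 with DESeq2 and 39 without a filter, and 0 to 4 with each library left out. Deviations of same-numbered chow libraries correlated at 0.0909, -0.0102, -0.0362 and 0.0823 for numbers 1, 2, 3 and 5. Those of differently numbered chow libraries correlated at -0.106 to 0.0693. The values for numbers 1 and 5 were the highest of all chow F and M pairs. The labels do not say whether equal numbers mark a pair or a batch, and the numbers were not taken as pairs. The replicate block uses numbers 1, 2, 3 and 5 only, which drops chow F 4, and called 1048, against 1097 in the same 8 libraries without a block. Of 114 named called genes, 75 kept the call without each single library, 62 kept it in the 19-library model and 98 with the replicate block. Members called moved by over 1.5 times in some lists. In the 19-library model the ion channel list had 2 calls, against 8, calcium cycling 0, against 4, androgen-responsive genes 3, against 6, cardiac stress genes 3, against 6, matrix genes 5, against 8, growth hormone genes 0, against 3, glucose genes 2, against 4, sarcomere genes 1, against 3, and cholesterol genes 0, against 2. Counts higher with DESeq2 were 9 in calcium cycling, against 4, 5 in the cell cycle, against 2, and 5 in the sarcomere list, against 3. Genes near the floor of 0.0472 CPM are limited by depth.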

Other observations

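Several genes outside the named lists are given here. All were drawn from called genes whose F and M hearts did not overlap, so their separation was set by the choice. They are the smallest p among the rest, or were picked after their values were seen. Srsf5, a splicing factor, had 397, 338, 345, 356 and 348 CPM in F hearts, against 255, 221, 243 and 256 CPM in M hearts (log2 0.55 ± 0.06, adjusted p = 1.24e-04 in edgeR), and Hnrnpl had 258, 223, 243, 252 and 241 CPM in F hearts, against 183, 179, 184 and 178 CPM in M hearts (log2 0.43 ± 0.05, adjusted p = 1.41e-04). Cirbp, the cold-inducible RNA-binding protein, had 83.7, 72.9, 67.1, 78.2 and 55.9 CPM in F hearts, against 39.1, 29, 41.5 and 49 CPM in M hearts (log2 0.85 ± 0.14, adjusted p = 0.00258). On high fat the log2 differences were 0.05 for Srsf5, 0.23 for Hnrnpl and 0.27 for Cirbp, of which Hnrnpl alone passed.

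Mylk4, a kinase of the myosin light chain kinase family, had 173, 167, 144, 153 and 159.9 CPM in F hearts, against 106, 103, 98.8 and 101 CPM in M hearts (log2 0.64 ± 0.05, adjusted p = 1.78e-05). Pdp2, the phosphatase that switches on pyruvate dehydrogenase, had 26.7, 23.8, 23.7, 24.9 and 22.4 CPM in F hearts, against 15.6, 14.2, 15.3 and 13.7 CPM in M hearts (log2 0.73 ± 0.07, adjusted p = 3.23e-05). Mgp, an inhibitor of calcification, had 81.2, 73.5, 88.1, 87.4 and 98.7 CPM in F hearts, against 53.6, 58.4, 52.3 and 55.8 CPM in M hearts (log2 0.64 ± 0.07, adjusted p = 2.09e-04). Ace, which makes angiotensin II, ran the other way, with 48.1, 42.3, 43.6, 43.9 and 44.3 CPM in F hearts, against 73.4, 83.7, 64.2 and 69.8 CPM in M hearts (log2 -0.71 ± 0.07, adjusted p = 5.19e-05). Ankrd23, a titin-binding ankyrin repeat protein, had 65.2, 66.5, 60.9, 53.9 and 60 CPM in F hearts, against 99.8, 92.1, 92.5 and 97.6 CPM in M hearts (log2 -0.64 ± 0.06, adjusted p = 3.50e-05), and Abra, an actin-binding protein of striated muscle, had 14.3, 15.9, 20.8, 15.4 and 17.8 CPM in F hearts, against 29.9, 35.6, 29.9 and 30 CPM in M hearts (log2 -0.90 ± 0.10, adjusted p = 1.63e-04). All 6 were chosen from genes whose F and M hearts did not overlap. Sphk2 also rose (log2 0.95 ± 0.07, adjusted p = 1.06e-05), but it lies opposite Dbp, and reads of the pair are not separated by strand here.

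Sirpa, a receptor of myeloid cells, was called both ways, at log2 -0.19 on chow (adjusted p = 0.0435) and 0.21 on high fat (0.0216), with an adjusted p of 0.0815 for the difference in edgeR.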
